A study of Mus musculus with 8 samples.

Results

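The 9 genes described here are those of antigen presentation on MHC class II, chosen by name from the count table: the class II chains H2-Aa, H2-Ab1 and H2-Eb1, the peptide exchange chains H2-DMa and H2-DMb1, the invariant chain gene Cd74, the transactivator gene Ciita and the costimulatory ligand genes Cd86 and Cd80. All 9 were found among 54309 genes, and all 9 passed the filter on low counts that left 15472 genes for testing. RNA came from whole livers of male C57BL/6J mice on a fructose, palmitate and cholesterol diet for 16 weeks, which gives steatohepatitis, an inflamed fatty liver. Antibody against CD47 (antiCD47, 4 libraries) or control IgG (4 libraries) was injected into the abdomen from week 8 to week 16, at 200 µg per mouse, and mice of both treatments, the IgG controls included, were on this diet. The series gives 7 to 8 mice per treatment, and its labels neither tie a library to a mouse nor say whether livers were pooled, so SDs, n = 4 and p-values describe the spread between libraries. CD47 is the surface protein that restrains engulfment through SIRPα on macrophages, and the comparison asks what its blockade does in the inflamed liver.

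Class II molecules carry peptides from the endosome to the cell surface, where CD4 T cells read them. An alpha and a beta chain are assembled on the invariant chain, which blocks the peptide groove until proteases trim it and H2-DM exchanges the remnant for an antigen peptide. Dendritic cells, B cells and macrophages make class II constitutively, other cells can make it under interferon gamma, and CIITA is the switch in both. In the liver, dendritic cells, Kupffer cells and recruited macrophages are known carriers. CD86 and CD80 give the T cell its second signal through CD28.

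Libraries held 43691472 to 55477484 counts each, and libraries of a treatment differed from each other beyond sampling noise in every pair, so each of the 8 was used. Over all genes 842 were higher (5.44%) and 836 lower (5.4%) in antiCD47 livers; scaled by library totals in place of TMM factors these were 428 and 3153. The counts depended on single libraries, with 2 genes past the threshold without IgG 4 and 3630 without antiCD47 1.

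In the antiCD47 livers Cd86 rose 1.53-fold, and it was the only one of the 9 genes past an adjusted p of 0.05, against 10.8% of all genes tested (edgeR quasi-likelihood test, two-sided, Benjamini-Hochberg adjustment over all genes). The 3 class II chains, Cd74 and both H2-DM chains had lower means in antiCD47 than in IgG livers, with folds of 0.677 to 0.796, and none of these 6 passed. Ciita and Cd80 had folds of 1.05 and 0.934 and did not pass either. Over the 9 genes the median log2 fold change was -0.36, beside -0.0064 over all genes tested. Cd86 was also the only member whose libraries did not overlap between treatments, against 19.6% of all genes tested in either direction and 9.51% that were higher in antiCD47. By DESeq2, Cd86, H2-Eb1 and H2-Ab1 passed, where 20.5% of all genes did; limma voom passed Cd86 alone, with 11.3% of all genes, and voom with quality weights passed Cd86 and H2-Eb1, with 28% of all genes.

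**Figure D1:**
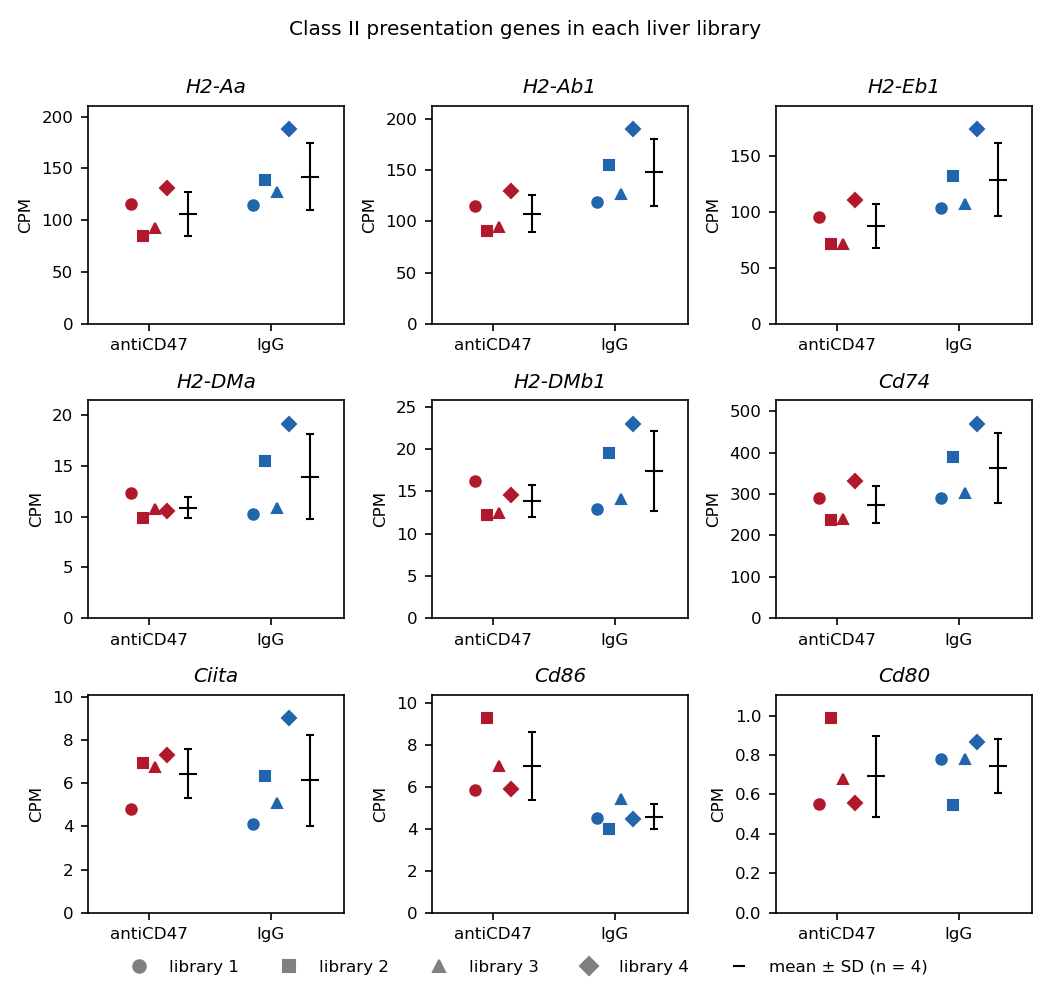
Level of each of the 9 genes in CPM (count rate after TMM scaling of library size) in the 4 antiCD47 libraries (left, red) and the 4 IgG libraries (right, blue), with the mean ± SD in black. Marker shapes give library numbers, and the labels state no pairing of libraries by number. IgG 4 is the highest library for the 3 class II chains, both H2-DM chains, Cd74 and Ciita, and Cd86 is the gene in which every antiCD47 library lies above every IgG library.

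Promoter stretches are shown first for the 3 genes whose windows held both promoter boxes described below. Whether these letters bear on how the genes varied from library to library was not tested. In RefSeq promoter windows of GRCm38.p6, an older build than the GRCm39 named by the submitters, 5 of the 9 genes had an entry. As background, class II promoters carry an X box bound by the RFX complex and CREB1 and, further toward the start site, a Y box bound by NF-Y, and CIITA docks on these factors without touching DNA. Capitals mark the X box letters and the Y box letters, 5′ to 3′ on the gene's strand.
H2-Aa (minus strand, chr17:34287852-34287919): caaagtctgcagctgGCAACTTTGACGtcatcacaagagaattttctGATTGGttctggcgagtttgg
H2-Eb1 (plus strand, chr17:34305761-34305827): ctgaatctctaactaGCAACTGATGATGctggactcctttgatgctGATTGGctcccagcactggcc
H2-DMb1 (plus strand, chr17:34153082-34153149): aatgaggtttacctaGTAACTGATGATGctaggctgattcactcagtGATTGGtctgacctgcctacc

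The X box was searched as GNAACT, then 1 or 2 bases of any kind, then TGANG, and the Y box as GATTGG, on both strands, with 10 to 30 bases between them in that order. These letters were written down after the windows of the 3 genes had been read, so their match there is a description. The gap was 20 bases in H2-Aa, 18 in H2-Eb1 and 19 in H2-DMb1, and the Y box ended 43, 54 and 56 bases before the start site in that order of genes. Of 32851 windows of 250 bases before to 50 after a start, 0.551% held the X box letters, 16.1% the Y box letters and 9 (0.0274%) the X box followed by the Y box. The 8 genes with the pair were the 3 shown and, outside the lists used here, 1700048F04Rik, BC051142, Nasp, Scgb2b20 and Tcam1. Neither of the 2 windows of H2-DMa nor the window of Cd80 held the pair. Class II chain genes outside the 9 did not hold it either: the windows of H2-Oa, H2-Ob, H2-DMb2 and H2-Eb2 had the Y box letters but not the X box letters.

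H2-Aa encodes the alpha chain of the I-A molecule. It had 116, 84.6, 92.8 and 131 CPM in antiCD47 1 to 4, against 114, 139, 127 and 188 CPM in IgG 1 to 4. The groups overlapped: antiCD47 1 and antiCD47 4 lay within the IgG range and antiCD47 2 and 3 below it. The mean was 106 ± 21.2 CPM in antiCD47 and 142 ± 32.1 CPM in IgG (SD, n = 4 each), with a log2 fold change of -0.42 ± 0.17 (SE; adjusted p = 0.129).

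H2-Ab1 encodes the beta chain that pairs with H2-Aa. It had 115, 90.2, 95.0 and 130 CPM in antiCD47 1 to 4, against 119, 155, 127 and 190 CPM in IgG 1 to 4. The antiCD47 libraries 1 to 3 lay below every IgG library, and antiCD47 4 lay above IgG 1 and IgG 3. The log2 fold change was -0.46 ± 0.16 (SE; adjusted p = 0.0900).

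H2-Eb1 encodes the beta chain of the I-E molecule, whose alpha chain gene H2-Ea is known to be defective in C57BL/6 mice and was not matched in the count table. It had 95.9, 71.3, 71.6 and 111 CPM in antiCD47 1 to 4, against 103, 132, 107 and 174 CPM in IgG 1 to 4. Again antiCD47 4 was the only antiCD47 library inside the IgG range. H2-Eb1 had the most negative log2 fold change of the 9 genes, -0.56 ± 0.19 (SE; adjusted p = 0.0828). In the authors' deposited table its adjusted p was 0.0354, in a table where 18.4% of 14432 genes lay under 0.05, and those of H2-Ab1 and H2-Aa were 0.0594 and 0.0914.

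Cd74, the invariant chain, had 290.2, 238, 240.4 and 331 CPM in antiCD47 1 to 4, against 291, 389, 303 and 470.3 CPM in IgG 1 to 4. Its libraries were ordered much like those of the chains, with antiCD47 2 and 3 lowest and IgG 4 highest. The log2 fold change was -0.40 ± 0.17 (SE; adjusted p = 0.128).

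H2-DMa and H2-DMb1 form the exchange factor that edits the bound peptide. H2-DMa had 12.3, 9.85, 10.7 and 10.5 CPM in antiCD47 1 to 4, against 10.3, 15.5, 10.8 and 19.1 CPM in IgG 1 to 4. H2-DMb1 had 16.2, 12.2, 12.5 and 14.6 CPM in antiCD47 1 to 4, against 13.0, 19.6, 14.1 and 23.0 CPM in IgG 1 to 4. For both genes IgG 1 and IgG 3 lay among the antiCD47 libraries and IgG 2 and IgG 4 above them. Their log2 fold changes were -0.36 ± 0.19 (SE; adjusted p = 0.211) for H2-DMa and -0.33 ± 0.18 (SE; adjusted p = 0.238) for H2-DMb1. H2-DMb2 is a close copy of H2-DMb1, and how reads were split between them is uncertain; it had 236 counts over the antiCD47 libraries and 373 over the IgG libraries, against 2668 and 3778 for H2-DMb1. H2-DMa overlaps Brd2 on the opposite strand, and no source used here says whether counting used strand.

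One library weighed on these 6 genes. Without IgG 4 the log2 fold changes were -0.26 for H2-Aa, -0.31 for H2-Ab1, -0.38 for H2-Eb1, -0.25 for Cd74, -0.17 for H2-DMa and -0.16 for H2-DMb1. All 6 were still negative, and their adjusted p was 0.186 to 0.528 in that fit, in which 0.0128% of genes passed.

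**Figure D2:**
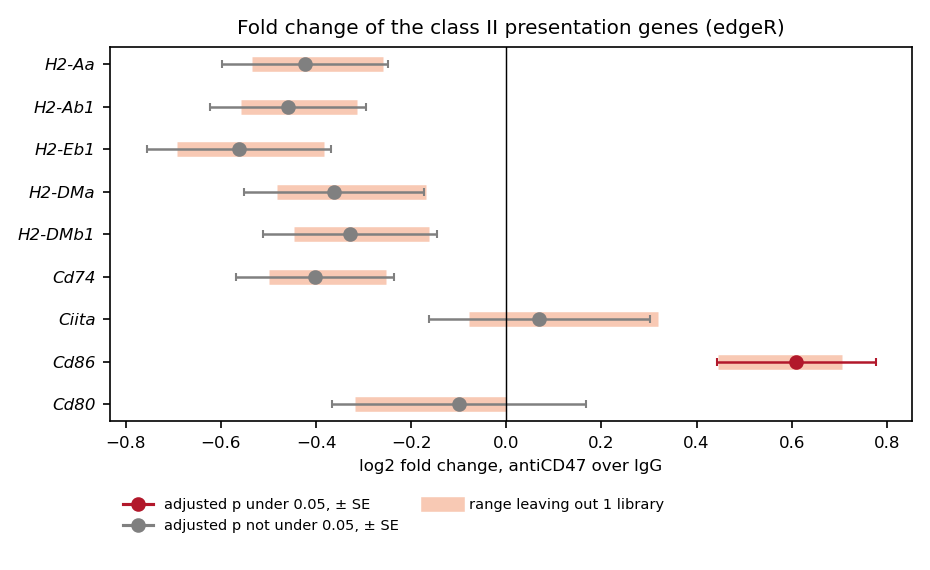
Log2 fold change of each of the 9 genes, antiCD47 over IgG, with its SE (edgeR, 4 libraries each), and as a pale bar the range obtained when each of the 8 libraries was left out in turn. The bars of the 6 chain, chaperone and exchange genes lie below 0, that of Cd86 lies above 0, and that of Ciita spans it.

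Ciita encodes the transactivator that switches on the class II genes. It had 4.78, 6.93, 6.76 and 7.30 CPM in antiCD47 1 to 4, against 4.10, 6.31, 5.06 and 9.01 CPM in IgG 1 to 4. All antiCD47 libraries lay within the IgG range. The log2 fold change was 0.070 ± 0.23 (SE; adjusted p = 0.859). Its sign was negative under scaling by library totals (-0.13), without IgG 1 (-0.079) and without IgG 3 (-0.0054), and it was 0.32 without IgG 4. Ciita overlaps Dexi on the opposite strand.

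The counts of the 3 class II chains per Ciita count were 68.4, 35.5, 38.4 and 50.9 in antiCD47 1 to 4, against 82.2, 67.5, 71.2 and 61.3 in IgG 1 to 4. The antiCD47 libraries 2 to 4 lay below the IgG range and antiCD47 1 within it. Ratios within the class II complex were closer together. H2-Ab1 over H2-Aa averaged 1.02 ± 0.0349 in antiCD47 and 1.04 ± 0.0555 in IgG (SD, n = 4 each). Cd74 over the 3 chains averaged 0.918 ± 0.0379 in antiCD47 and 0.867 ± 0.0323 in IgG, with overlap. H2-Eb1 over H2-Aa was 0.771 to 0.847 in antiCD47 and 0.838 to 0.951 in IgG, with antiCD47 2 and 4 just above IgG 3. These ratios are given as descriptions, with no test.

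Cd86 encodes the ligand that gives CD28 on T cells its activating signal. It had 5.84, 9.28, 6.98 and 5.91 CPM in antiCD47 1 to 4, against 4.50, 3.98, 5.42 and 4.46 CPM in IgG 1 to 4. Every antiCD47 library was above every IgG library, with antiCD47 2 highest. The mean was 7.00 ± 1.61 CPM in antiCD47 and 4.59 ± 0.600 CPM in IgG (SD, n = 4 each), and Cd86 rose by 0.61 ± 0.17 on the log2 scale (SE; adjusted p = 0.0459). The authors' deposited table lists it at an adjusted p of 0.00631. The call lay near the threshold and was lost in 10 of 18 alternatives. Leaving out antiCD47 2, antiCD47 3, IgG 1, IgG 2, IgG 3 or IgG 4 gave log2 fold changes of 0.45 to 0.71 with adjusted p of 0.0763 to 0.114, and leaving out antiCD47 2 and IgG 2 together gave 0.38 (adjusted p = 0.115).

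Cd80 encodes the other CD28 ligand, which, like CD86, also binds CTLA-4. It had 28, 49, 33 and 24 counts in antiCD47 1 to 4, against 37, 30, 42 and 50 counts in IgG 1 to 4, the lowest counts of the 9 genes. In CPM antiCD47 2 was the highest of the 8 libraries and IgG 2 the lowest, and the groups overlapped. The log2 fold change was -0.10 ± 0.27 (SE; adjusted p = 0.824). The ratio of Cd86 to Cd80 counts was 10.6, 9.41, 10.3 and 10.6 in antiCD47 1 to 4, against 5.78, 7.30, 6.93 and 5.16 in IgG 1 to 4, with no overlap. Cd86 per 100 counts of the 3 chains was 1.79, 3.77, 2.69 and 1.59 in antiCD47 1 to 4, against 1.34, 0.935, 1.50 and 0.807 in IgG 1 to 4, again with no overlap and with antiCD47 4 close to IgG 3.

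Levels of different genes were compared per kilobase of the principal transcript. Cd74 came first, with 195 ± 31.4 CPM per kilobase in antiCD47 and 258 ± 59.3 in IgG (SD, n = 4 each). H2-Aa (94.0 ± 18.8 in antiCD47, 126 ± 28.5 in IgG) and H2-Ab1 (88.8 ± 15.2 in antiCD47, 122 ± 26.6 in IgG) followed, H2-Aa being the higher in 7 of 8 libraries. These SDs are between libraries and do not measure the spread of the difference within a library, which was not tested. H2-Eb1 (52.4 ± 11.6 in antiCD47, 77.3 ± 19.6 in IgG) was below both in all 8 libraries. Below it came H2-DMb1, H2-DMa, Cd86 (2.76 ± 0.633 in antiCD47, 1.81 ± 0.236 in IgG), Ciita and Cd80 (0.218 ± 0.0645 in antiCD47, 0.234 ± 0.0432 in IgG). From H2-Ab1 downward each gene exceeded the next in 8 of 8 libraries.

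Among libraries of the same treatment, the 6 chain, chaperone and exchange genes varied together. After each treatment's mean was subtracted, Pearson's r over the 8 libraries was 0.755 to 0.994 for the 15 pairs of these genes, highest for H2-Ab1 with Cd74. Ciita followed them less closely, with r of 0.552 to 0.67. Cd86 ran the other way, with r of -0.639 to -0.451, and Cd80 had r of -0.41 to -0.22. All these values share the same 8 libraries and their scaling and are descriptions.

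By the rule for likeness, the 6 genes outside the list whose group-centred levels followed the chains and Cd74 most closely, of 12004 candidates, were Cep295 (r = 0.982), Tecpr1 (0.961), Ccdc14 (0.960), Rasal2 (0.954), Fbln1 (0.953) and Rock2 (0.952). Spearman's rho was 0.833 to 0.976 for these genes, and r was 0.84 to 0.968 without IgG 4 and antiCD47 4, the libraries farthest from the median. These 6 are the extremes of a search, 23 candidates had r of at least 0.9, and none is a gene of the lists that follow. Tecpr1, an autophagy protein gene, fell by 0.55 on the log2 scale (adjusted p = 0.0206), and Fbln1, a matrix protein gene, fell by 0.81 (adjusted p = 0.0454). The Tecpr1 call was lost without antiCD47 3, IgG 1, IgG 3 or IgG 4 (adjusted p 0.0549 to 0.0722), and the Fbln1 call without antiCD47 2, antiCD47 3 or any IgG library (adjusted p 0.0572 to 0.123).

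Of 54 further genes of class II presentation in 6 lists, 46 were tested, 2 rose, 2 fell and 42 did not pass, a share of calls close to that over all genes. Their median log2 fold change was 0.10. Among the other class II chains, 1 of 4 tested genes fell. This was H2-Oa, the alpha chain of H2-O, which restrains H2-DM in B cells and some dendritic cells. It had 0.138, 0.222, 0.389 and 0.301 CPM in antiCD47 1 to 4, against 0.421, 0.928, 0.782 and 1.02 CPM in IgG 1 to 4, without overlap. Over the 4 libraries of each treatment these were 50 counts in antiCD47 and 172 in IgG, and the log2 fold change was -1.59 ± 0.38 (SE; adjusted p = 0.0328). It missed the threshold under 8 of 18 alternatives, including those without antiCD47 2, antiCD47 3 or any IgG library (adjusted p 0.0526 to 0.0953). Its partner H2-Ob also had no overlap, with 0.579 to 0.717 CPM in antiCD47 and 0.782 to 0.985 CPM in IgG, but did not pass (-0.44 ± 0.20, adjusted p = 0.157). The authors' deposited table gives H2-Ob an adjusted p of 0.712. Of the 46 tested genes, 3 were higher and 3 lower in antiCD47 without overlap, beside 19.6% of all genes without overlap in either direction.

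None of the 7 tested promoter factor genes passed by edgeR. DESeq2, which passed 20.5% of all genes, passed 2 of them, Nfyb and Rfxank, both higher in antiCD47. In the authors' deposited table the adjusted p was 0.0267 for Nfyb, 0.012 for Rfxap and 0.204 for Rfxank. Nfyb, a subunit of the Y box factor NF-Y, had 27.7 to 37.8 CPM in antiCD47 and 22.7 to 25.8 CPM in IgG, without overlap (adjusted p = 0.0507), and Rfxank, a subunit of the X box complex, was at 0.43 ± 0.14 on the log2 scale (SE; adjusted p = 0.072). The list median was 0.27.

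On the interferon gamma route to Ciita, 1 of 7 tested genes rose. Jak1, a kinase bound to the interferon receptors, had 108, 175, 140 and 131 CPM in antiCD47 1 to 4, against 93.9, 97.8, 91.1 and 104 CPM in IgG 1 to 4. It rose by 0.52 ± 0.13 on the log2 scale (SE; adjusted p = 0.0357), a call that missed the threshold under 7 of 18 alternatives, including those without antiCD47 3 or any IgG library (adjusted p 0.0567 to 0.102). Irf1, an interferon-induced factor that acts on the Ciita promoter, had a log2 fold change of 0.87 ± 0.28 and did not pass by edgeR (adjusted p = 0.0726). Irf1 passed by DESeq2, where 20.5% of all genes did, and the authors' deposited table lists it at an adjusted p of 0.0207. Ifng itself was too low for the test, with 9 counts over the antiCD47 libraries and 4 over the IgG libraries. The list median was 0.34.

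Of 12 genes of endosomal processing and class II turnover, 1 fell and the median log2 fold change was 0.020. Cd63, a tetraspanin of late endosomes, had 36.2, 20.3, 26.8 and 32.0 CPM in antiCD47 1 to 4, against 48.3, 40.4, 58.4 and 50.1 CPM in IgG 1 to 4, and fell by 0.77 on the log2 scale (SE 0.17; adjusted p = 0.0280), a call lost without antiCD47 3, IgG 1, IgG 3 or IgG 4 (adjusted p 0.0731 to 0.0874) and kept in 14 of 18 alternatives. Ctss, the protease known to trim the invariant chain, had 124 to 142 CPM in antiCD47 and 111 to 151 CPM in IgG, with a log2 fold change of 0.017 ± 0.10.

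Among the other ligands for T cells, 1 of 8 tested genes rose, and the list median was 0.45. Cd274, the inhibitory ligand PD-L1, had 3.56, 10.8, 12.5 and 8.43 CPM in antiCD47 1 to 4, against 2.40, 3.82, 2.61 and 4.41 CPM in IgG 1 to 4. antiCD47 1 lay within the IgG range and the other antiCD47 libraries above it, and Cd274 rose by 1.41 ± 0.35 on the log2 scale (SE; adjusted p = 0.0369). It missed the threshold under 9 of 18 alternatives, including those without each library except antiCD47 1 (adjusted p 0.052 to 0.107). Of the receptors and coreceptors on T cells, 0 of 8 tested genes passed by edgeR, with none at an adjusted p under 0.05 by DESeq2 or limma voom and 1, Lag3, at an unadjusted p under 0.05 in edgeR, as were 32.5% of all genes. Lag3, an inhibitory receptor for class II, had 0.551 to 1.02 CPM in antiCD47 and 0.715 to 2.87 CPM in IgG (log2 -1.10 ± 0.45; adjusted p = 0.126), and Cd3e, a chain of the T cell receptor complex, was at -0.75 ± 0.59 (adjusted p = 0.400).

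**Figure D3:**
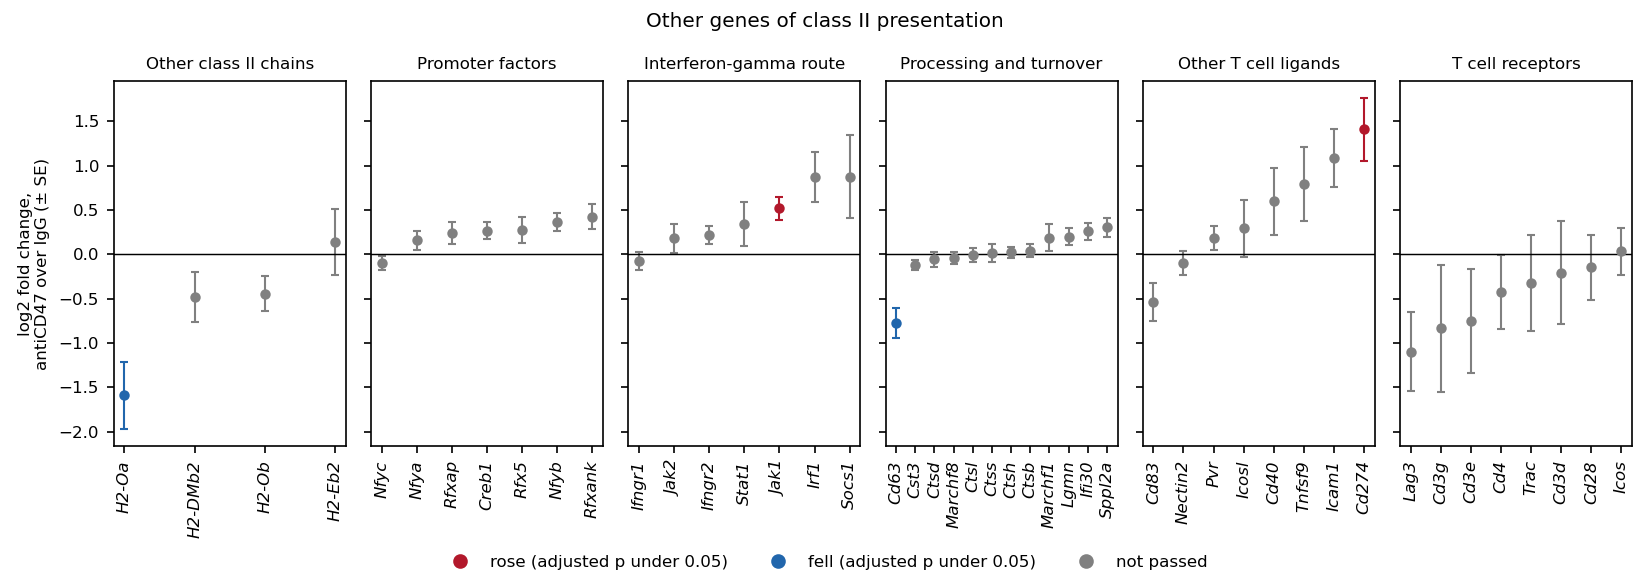
Log2 fold change (antiCD47 over IgG, ± SE, edgeR, 4 libraries each) of the 46 tested genes in the 6 lists around class II presentation. The 2 genes that rose (Jak1, Cd274) are red, the 2 that fell (H2-Oa, Cd63) are blue and the 42 that did not pass are grey.

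Markers of cells that carry class II were read beside the 9 genes, since in whole tissue fewer cells of a type and less RNA per cell cannot be told apart. Of 15 dendritic cell markers, 1 fell and none rose by edgeR, while by DESeq2 1 fell and 1 rose. The list had 3 positive and 12 negative log2 fold changes, from -0.91 to 0.58. Flt3, the growth factor receptor of dendritic cells, had 0.866 to 1.09 CPM in antiCD47 and 1.37 to 2.03 CPM in IgG, with a log2 fold change of -0.74 ± 0.20 (SE; adjusted p = 0.0429), a call that missed the threshold under 8 of 18 alternatives, including those without antiCD47 2, 3 or 4 or IgG 1, 3 or 4 (adjusted p 0.0511 to 0.127). The summed level of the list was 44.3 to 56.8 CPM in antiCD47 and 44.1 to 60.7 CPM in IgG, and the median log2 fold change was -0.27. Of 9 tested B cell markers none passed by edgeR, and Ms4a1 was the 1 at an unadjusted p under 0.05 (log2 0.66 ± 0.26, adjusted p = 0.119). The 9 markers had 3 positive and 6 negative log2 fold changes, with a median of -0.14. They summed to 6.30 to 8.13 CPM in antiCD47 and 6.07 to 9.16 CPM in IgG.

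Of 10 Kupffer cell markers 7 rose and none fell, with a summed level of 601 to 840 CPM in antiCD47 and 321 to 497 CPM in IgG, without overlap. Fcna, Folr2 and Clec4f led them by p, with log2 fold changes of 1.39 ± 0.22, 1.18 ± 0.22 and 1.09 ± 0.23. Of 10 markers of recruited macrophages and monocytes, Chil3 (1.40 ± 0.24) and Itgam (0.90 ± 0.21) rose, and the sums were 332 to 449 CPM in antiCD47 and 250 to 429 CPM in IgG. This list was split, with 5 positive and 5 negative log2 fold changes and a median of 0.035. By DESeq2, 2 of its markers rose and 1 fell. Of 7 neutrophil markers all rose, led by p by S100a9 (2.27 ± 0.35), S100a8 (2.34 ± 0.38) and Cxcr2 (1.48 ± 0.29). These counts depended on single libraries. Without antiCD47 3 or without IgG 4 no marker of the 3 lists passed, in fits where 21 and 2 genes of the whole table passed. All 7 neutrophil markers had an unadjusted p under 0.05 (edgeR) in each fit without 1 library. So had 8 to 9 Kupffer cell markers and 2 to 5 macrophage markers. With all 8 libraries 32.5% of all genes had such a p. Of the Kupffer cell markers 1 passed without IgG 1, 3 without antiCD47 2, 4 without IgG 2 and 5 without IgG 3. Of the macrophage markers 1 passed without IgG 1, 1 without antiCD47 2 and 0 without IgG 3. Of the neutrophil markers 1 passed without IgG 1, 4 without antiCD47 2 and 0 without IgG 3. Of 8 T cell markers none passed by edgeR or DESeq2, and none had an unadjusted p under 0.05 in either; they summed to 3.86 to 10.8 CPM in antiCD47 and 3.31 to 18.3 CPM in IgG, and antiCD47 4 and IgG 4 were the highest in their groups, as they were for the class II chains and Cd74. No list had a marker at 0 in all libraries of a treatment. The part of these cells in the values of the 9 genes was not tested.

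Of the remaining lists, 6 of 7 cholangiocyte markers fell, led by Tspan8, Epcam and Cftr, 2 of 7 stellate cell markers fell (Col1a1 and Col3a1), 0 of 7 markers of sinusoidal endothelium passed by edgeR, and 1 of 6 hepatocyte markers rose (Hnf4a). Without antiCD47 3 or without IgG 4 no marker of these lists passed, again in fits where 21 and 2 genes of the whole table passed. All 7 cholangiocyte markers had an unadjusted p under 0.05 (edgeR) in each fit without 1 library. So had 3 stellate cell markers, 0 to 3 sinusoidal markers and 1 hepatocyte marker. Of the cholangiocyte markers 2 passed without IgG 1, 2 without IgG 3 and 3 without antiCD47 2, and of the stellate cell markers 1 passed without IgG 3. The Hnf4a call was also lost without antiCD47 2, IgG 1 or IgG 3. Of the sinusoidal markers 2 had an unadjusted p under 0.05, led by Clec4g. That list had 1 positive and 6 negative log2 fold changes, with a median of -0.14. Alb, the hepatocyte product albumin, had 43202 to 52171 CPM in antiCD47 and 41018 to 44610 CPM in IgG, as whole liver gives.

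**Figure D4:**
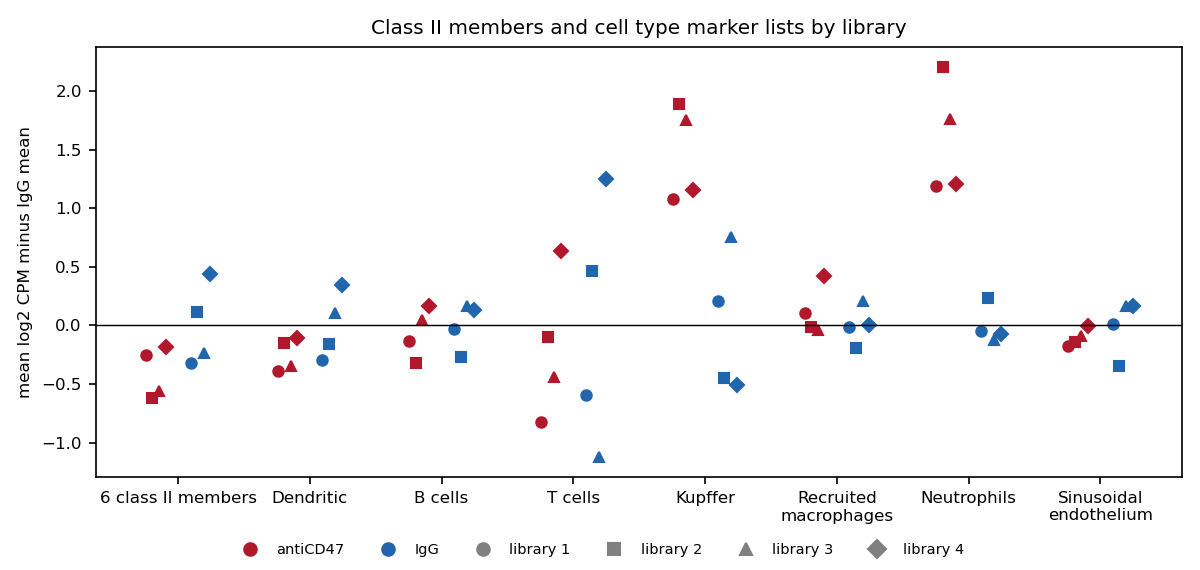
Mean log2 CPM over the genes of a list minus its mean in IgG, for each antiCD47 library (red, left in each pair) and each IgG library (blue), for the 6 chain, chaperone and exchange genes and 7 marker lists. The Kupffer cell and neutrophil values of all antiCD47 libraries lie above those of all IgG libraries, while the values of the 6 class II genes overlap, from -0.62 to -0.19 in antiCD47 and from -0.32 to 0.44 in IgG.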

How the data were processed

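PolyA RNA of whole liver was sequenced from Illumina TruSeq libraries, 4 per treatment, per the labels' protocols. The authors deposited whole-number counts per Ensembl gene, treated like estimated counts since no source used here says whether they were rounded; Salmon 1.3.0, DESeq2 1.32.0 and GRCm39 are named in the submitters' processing notes with no role. The deposited comparison table gives, per the file headers, a mean signal, a log2 fold change, p-values and a rank score; only its adjusted p-values are quoted, since its direction is not stated.

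Genes were filtered with filterByExpr, scaled by TMM and tested in edgeR 4.0.16 (R 4.3.3, quasi-likelihood) with adjustment over 15472 genes; the SE is the log2 fold change over the root of F. Log2 CPM used a prior count of 2. GENCODE M21, of an older build, gave names and lengths. Members were found by Ensembl ID through the deposited symbols. Members, 6 pathway lists (52 of 54 genes matched) and 10 marker lists were chosen with earlier results of these data known. Named were all members and the 6 most alike genes. Of each pathway list, genes past the threshold or else the 2 with the smallest p were named. Of each marker list, up to 3 genes past it or else 1 were named. H2-Ob, H2-DMb2, Rfxap, Irf1, Ifng, Ctss and Alb were named after their values were seen. Alternatives were 3 other scalings, 2 other filters, DESeq2 1.42.0, limma 3.58.1 voom with and without quality weights, the replicate number as a block, each library left out, and an adjusted p of 0.1; leaving out antiCD47 2 and IgG 2 together was added after seeing the data.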

Additional observations from a re-analysis of the deposited data

Results flagged for a closer look

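The counts of H2-DMa plus H2-DMb1 per count of the 3 class II chains were 0.0676 in antiCD47 4, apart from 0.0871, 0.0895 and 0.0895 in the other antiCD47 libraries, and 0.0689 to 0.0822 in IgG. The gap between antiCD47 4 and its nearest neighbour took up more of the group's range than is usual for 4 samples (Dixon's test). It was the only such library in 32 groups of values examined, and chance flags about 1 in 20 groups.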

How the results depend on the processing

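Against 1678 genes over the whole table, library totals in place of TMM gave 3581 (428 higher and 3153 lower in antiCD47, with the median of all genes at -0.19), DESeq2 3174, limma voom with quality weights 4331, an adjusted p of 0.1 3574, the fit without antiCD47 2 and IgG 2 1090, and leaving out 1 library 2 (IgG 4) to 3630 (antiCD47 1). Of the 9 genes, against 1, library totals passed 3 (H2-Eb1, H2-Ab1 and Cd74, all lower), DESeq2 3, an adjusted p of 0.1 3, voom with quality weights 2, upper quartile scaling 0, the fit without antiCD47 2 and IgG 2 0, and leaving out 1 library 0 to 1. Of the 46 pathway genes, against 4, DESeq2 passed 9, voom with quality weights 11, an adjusted p of 0.1 11, the fit without antiCD47 2 and IgG 2 2, and leaving out 1 library 0 to 11. Cd86 was positive in all 18 alternatives (0.38 to 0.71) and the 3 chains, Cd74 and both H2-DM chains were negative in all 18. Ciita ran from -0.13 (library totals), -0.079 (without IgG 1) and -0.0054 (without IgG 3) to 0.32 (without IgG 4). The TMM factors, which scaling by library totals leaves out, were 0.895 to 0.989 in antiCD47 libraries and 1.03 to 1.11 in IgG libraries, without overlap. The cause of the shifts between settings was not tested.

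With the replicate number as a block, 2425 genes passed (15.7%), 2 of the 9 genes (H2-Eb1 and H2-Ab1, not Cd86, at an adjusted p of 0.0537) and 7 of the pathway genes. Deviations of same-numbered libraries from their group means correlated at 0.0316, 0.157, -0.0232 and 0.0345. Of the antiCD47 libraries only antiCD47 2 correlated best with the IgG library of its number. The labels state no pairing, and these correlations over all genes cannot tell whether same-numbered libraries shared a batch.

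Cd80 had the fewest counts of the 9 genes, 134 over the antiCD47 libraries and 159 over the IgG libraries, and its SE of 0.27 on the log2 scale was the largest of them; counting error and spread between libraries were not separated.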

Other observations

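Of the pathway genes too low for the test, Pdcd1lg2, the second PD-1 ligand, had 25 counts over the antiCD47 libraries and 27 over the IgG libraries. Ctla4, the inhibitory receptor for CD86 and CD80, had 6 counts over the antiCD47 libraries and 41 over the IgG libraries. Tnfsf4, the OX40 ligand, had 0 counts over the antiCD47 libraries and 8 over the IgG libraries. Cd40lg, which helps activate antigen-presenting cells, had 12 counts over the antiCD47 libraries and 3 over the IgG libraries. Cd70 had 0 in both. The counts of the 3 class II chains and Cd74 together took 5.90, 4.34, 4.56 and 6.94 per 10000 library counts in antiCD47 1 to 4, against 6.44, 8.45, 7.28 and 11.3 in IgG 1 to 4, with antiCD47 4 the only antiCD47 library above the lowest IgG library.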
